A study of Schizosaccharomyces pombe with 2 samples.

Results

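The genes described here encode proteins that hold telomeres at the nuclear envelope of the fission yeast Schizosaccharomyces pombe, and that gather them next to the spindle pole body in meiosis. They were chosen by name: the bouquet genes bqt1, bqt2, bqt3 and bqt4, the SUN and KASH genes sad1, kms1 and kms2, and the inner nuclear membrane genes ima1 and man1. A probe set was taken where the platform's annotation gives its gene one of these symbols or a synonym and its signal was above 0 in both arrays. All 9 genes were found, each with 1 probe set, among 2896 named genes with a signal. Budding yeast genes that share a symbol with a member were kept apart by gene identifier.

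The study measured polyadenylated RNA of 2 strains of mating type h-, on 1 array each. JP1225 is the wild-type, and ST3479, called SD5, has deleted subtelomeres, the stretches of chromosome that adjoin the telomere repeats. Both cultures grew exponentially at 32 °C in the rich medium YES. The sources used here do not name the subtelomeres that SD5 lacks, nor say whether it was a single clone. There were no replicates, so no test was made, and every difference below describes these 2 arrays, in which a strain, its culture and its array cannot be told apart.

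In growing cells the telomere protein Rap1 is tied to the inner nuclear membrane by Bqt4, and Bqt3 protects Bqt4 from degradation. In meiotic prophase Bqt1 and Bqt2 form a bridge from Rap1 to Sad1, a SUN-domain protein of the nuclear envelope at the spindle pole body. Sad1 binds the KASH proteins Kms1 and Kms2 across the envelope, and through Kms1 the clustered telomeres are coupled to cytoplasmic dynein, which pulls the nucleus back and forth. Ima1 and the LEM-domain protein Man1 reside in the inner nuclear membrane, where they help to attach chromatin.

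The deposited signal is a linear intensity on each array. Its background was taken as the 95th percentile of 79 control and reporter probe sets with no target in this yeast, and was 17.7 for the wild-type array and 26.6 for the SD5 array. Each log2 ratio, SD5 over wild-type, had subtracted from it the median over those S. pombe probe sets whose signals both exceeded background, a step called centring. This median was -0.20, and that of 27 hybridisation control probe sets was -0.15. Unless a value is called deposited, the ratios below are centred. The SD5 label was checked on 7 genes (gal1, gal7, gal10, nhe1, dak2, say1 and tlh2) that are among the 24 protein-coding genes nearest to a chromosome end. They were picked with earlier results known, so their low signals are not an independent check of the label. By their mean signal all 7 were below background in SD5 and above it in the wild-type, and nhe1, the sodium/proton antiporter gene, had 2611 in wild-type cells and 17.3 in SD5 cells, at least 85.2-fold lower.

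None of the 9 genes had a signal 2-fold lower or higher in SD5, and 8 of the 9 differed by less than 1.3-fold. The exception was bqt2, with a signal 1.45-fold lower in SD5 and close to background there. The median log2 ratio of the 9 genes was 0.00, with 4 below 0 and 5 above, and that of the 2865 named genes with a ratio was also 0.00. Of these 2865 genes, 0.244% were at least 2-fold lower and 0.0349% at least 2-fold higher. With the background set as above, those at least 2-fold lower were the 7 genes of the label check, picked with earlier results known, and no others. At 1.3-fold the shares were 1.19% lower (34 genes) and 1.22% higher (35 genes). That split depended on scaling: it was 22 lower and 72 higher after quantile normalization, 47 and 23 when centred on hybridisation controls, and 218 and 8 without centring. At 2-fold, 7 named genes were lower and 1 higher, against 7 and 3 after quantile normalization and 7 and 0 after loess normalization, with control centring or without centring. These counts moved more with the background. They were 10 and 5 with it at the 75th percentile of the control and reporter probe sets. With it where the dimmest 10 percent of S. pombe probe sets end, they were 3 and 0. They were 13 and 7 when signals under background were not raised to it, and 7 and 2 with it as a pseudocount.

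**Figure D1:**
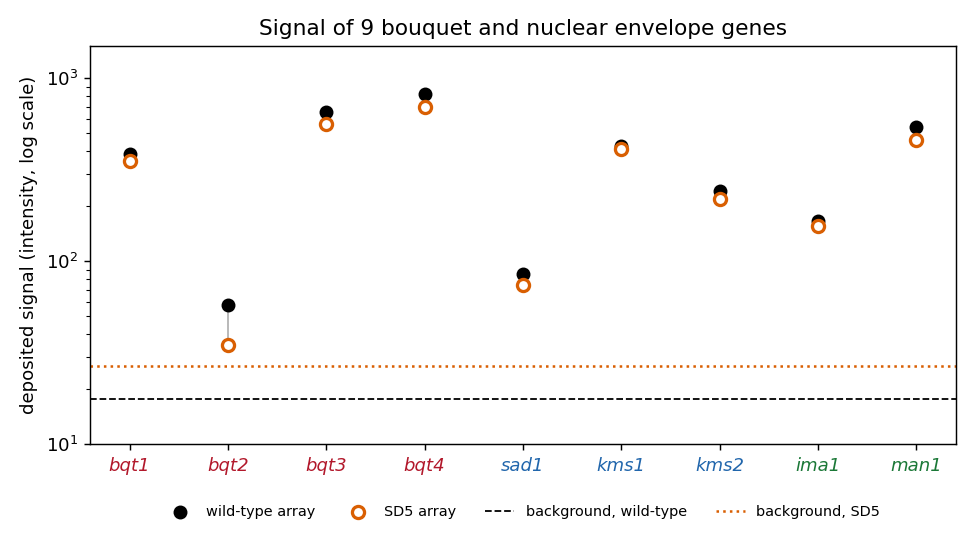
Deposited signal (log axis) of the 9 genes in the wild-type array (filled points) and the SD5 array (open points), with the background of each array as a horizontal line and gene names coloured by group (red for bouquet, blue for SUN and KASH, green for inner nuclear membrane). The signals of 8 genes nearly coincide, while bqt2 lies at 57.9 for the wild-type and at 34.7 for SD5, just above the SD5 background of 26.6.

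Among the bouquet genes, those of the constitutive anchor had close levels in both arrays. The signal of bqt4 (SPOM_SPBC19C7.10), the gene of the membrane protein that binds Rap1, was 824 for the wild-type and 693 for SD5. Its log2 ratio was -0.05 after centring. For bqt3 (SPOM_SPCC594.07C), whose product stabilises Bqt4, the signal was 654 on the wild-type array and 564 on the SD5 array, a log2 ratio of -0.01. Before centring both genes were shifted by about as much as the typical probe set, with deposited log2 ratios of -0.25 for bqt4 and -0.21 for bqt3.

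The genes of the meiotic bridge did not share a ratio. The signal of bqt1 (SPOM_SPAC6G9.13C) was 387 in wild-type cells and 353 in SD5 cells, a log2 ratio of 0.07. The signal of its partner bqt2 (SPOM_SPAC1002.06C) was 57.9 for the wild-type and 34.7 for SD5, a log2 ratio of -0.54. The wild-type signal of bqt2 was 3.27 times the background of that array, while its SD5 signal stood against a background of 26.6, the smallest margins among the 9 genes. The log2 ratios of bqt1 and bqt2 differed by 0.61, a difference that centring does not touch but other processing does. They lay closer after quantile normalization (0.10 and -0.23) and with the background added as a pseudocount (0.09 and -0.12). After loess normalization they lay further apart (0.10 and -0.61). By comparison, kms1 and kms2, both further above background than bqt2, differed by 0.10.

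The lower signal of bqt2 stayed within the spread of equally dim probe sets that exceeded background in both arrays. The 200 measured probe sets nearest to bqt2 in signal had log2 ratios from -0.60 at their 5th percentile to 0.64 at their 95th, and 11 of the 200 were as low as bqt2 or lower. Their mean signals ran from 23.8 to 113, and by definition 10 percent of probe sets lie outside such a range. As the background is higher for SD5, requiring a signal above it in both arrays left out low ratios at the dimmest signals. The 5th percentile and the count of 11 depend in part on this filter. It applies equally to the ranges given below for other genes as dim as bqt2. This spread between probe sets of 1 pair of arrays is not a replicate error. Among all named genes with a ratio, bqt2 had the 18th lowest. The 1.3-fold difference was lost after quantile normalization (-0.23) and with the background added as a pseudocount (-0.12). That pseudocount was 17.7 for the wild-type and 26.6 for SD5, which by itself raises the ratios of dim probe sets. With it 65 named genes were at least 1.3-fold higher and 20 lower, against 35 and 34 as reported. When the background was instead set where the dimmest 10 percent of S. pombe probe sets end, bqt2 was below it in both arrays and gave no ratio.

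**Figure D2:**
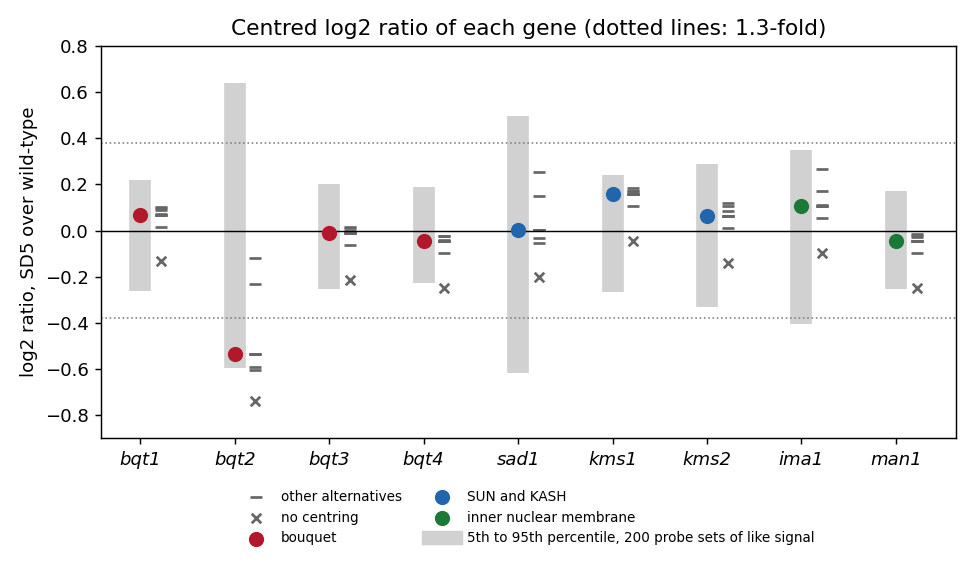
Centred log2 ratio of SD5 over wild-type for each gene (large points, coloured by group), the 5th to 95th percentile of the 200 probe sets nearest in signal (grey bars) and the values under other processing (dashes, and a cross for no centring); dotted lines mark 1.3-fold. Of the 9 points, bqt2 at -0.54 is the one beyond 1.3-fold, and all 9 lie inside their grey bars.

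The genes of the SUN and KASH proteins had log2 ratios between 0.00 and 0.16. The signal of sad1 (SPOM_SPBC12D12.01) was 85.4 on the wild-type array and 74.2 on the SD5 array, a log2 ratio of 0.00. It was 4.83 times the background in the wild-type and 2.79 times in SD5, the dimmest of the genes here relative to background after bqt2, and probe sets as dim ranged from -0.62 to 0.50 (5th to 95th percentile). The signal of kms1 (SPOM_SPAC3A11.05C), which encodes the KASH protein needed for meiotic telomere clustering, was 424 in wild-type cells and 411 in SD5 cells. Its log2 ratio of 0.16 was the highest of the 9, inside the range of -0.27 to 0.24 of probe sets of like signal. The signal of kms2 (SPOM_SPBC947.12), whose product is a KASH partner of Sad1 in mitotic growth, was 242 for the wild-type and 219 for SD5, a log2 ratio of 0.06.

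The inner nuclear membrane genes were likewise close in both arrays. The signal of ima1 (SPOM_SPCC737.03C) was 166 on the wild-type array and 155 on the SD5 array, a log2 ratio of 0.11. The signal of man1 (SPOM_SPAC14C4.05C) was 543 in wild-type cells and 457 in SD5 cells, a log2 ratio of -0.05. Lem2, no member of the set, is a LEM-domain protein of the same membrane and related to Man1. The signal of lem2 was 749 for the wild-type and 643 for SD5, and its log2 ratio of -0.02 lay 0.03 above that of man1. The deposited signals of all 9 members were lower in SD5, from 59.9% of the wild-type for bqt2 to 96.9% for kms1, and 8 of the 9 were between 84.2% and 96.9%; the centring factor was 0.869.

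**Figure D3:**
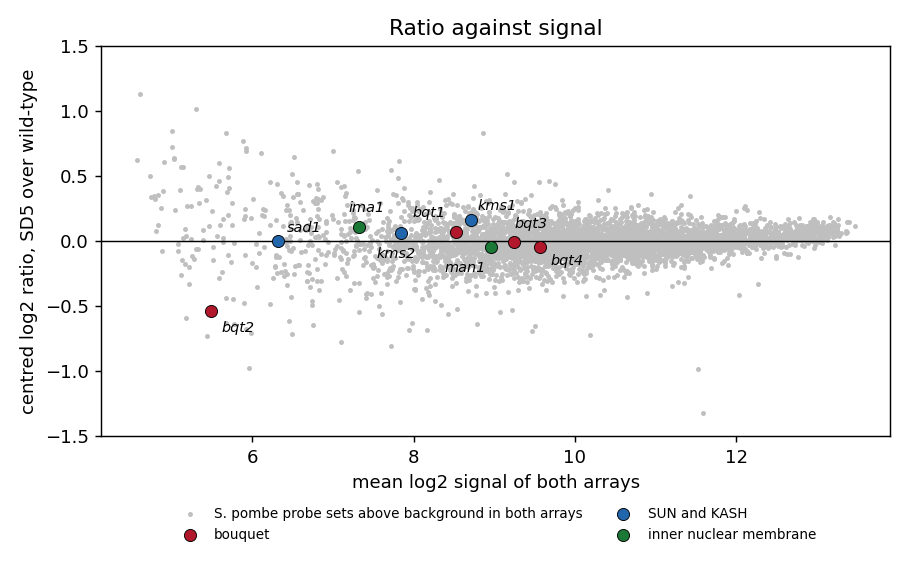
Centred log2 ratio against the mean log2 signal of both arrays for 4847 S. pombe probe sets above background in both (grey; 5 lie outside the plotted range) and the 9 genes (coloured by group). The scatter widens towards dim signals on the left, where bqt2 and sad1 lie; the other genes sit in the narrower part.

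The 9 genes lie on chromosomes I, II and III and none is near a chromosome end in the reference assembly ASM294v3, in which positions are counted here in protein-coding genes from the nearer end. The outermost were bqt3, the 128th gene from an end of chromosome III, and man1, the 129th from an end of chromosome I. The innermost was bqt1, the 949th on chromosome I, and bqt2 was the 751st on the same chromosome. Of the 36 protein-coding genes up to 2 places to either side of a member, 23 had a ratio, with a median of -0.01, and 21 of them differed by less than 1.3-fold. The exceptions were dsc1, a gene of the Golgi Dsc ubiquitin ligase near kms2, at -0.49, and the meiotic kinase gene mek1 near man1, at 0.44. Around bqt2 itself the neighbours were the TFIID subunit gene taf11 (-0.07), jmj2 (-0.12), SPOM_SPAC1002.07C, listed without a symbol (0.00), and mtf1 (0.20). None of these shared its low ratio.

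The annotated spans of 8 of the 9 genes, all but bqt3, overlap another annotated gene. The span of bqt2 overlaps 1 noncoding RNA, and that of bqt1 overlaps the protein-coding gene cfr1, with a log2 ratio of 0.01. Protein-coding genes also overlap sad1 (cdm1), kms1 (sei1) and man1 (nab2 and SPOM_SPAC14C4.04). The signal of cdm1 was 950 for the wild-type and 837 for SD5 (log2 ratio 0.02), beside 85.4 and 74.2 for sad1. No named probe set was found for sei1, nab2 and SPOM_SPAC14C4.04. The sources used here do not say which part and strand of a transcript a probe set reads, and the share of an overlapping transcript in a signal was not tested.

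With 2 arrays, likeness between genes reduces to likeness of a single ratio. Among 36 named genes within 0.5 of bqt2 in mean log2 signal, the nearest ratios were those of inv1, the invertase gene (-0.45), wsc1, which encodes a cell wall sensor (-0.44), and mel1, the alpha-galactosidase gene (-0.68). The nearest to kms1, among 450 genes, were the kinetochore gene spc24, the replication fork protection gene swi1 and the kinesin gene klp8, each at 0.16.

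Lists of related genes, chosen with earlier results of these data known, had medians near that of all named genes. The signal of rap1, the gene of the bouquet's partner at the telomere, was 297 on the wild-type array and 234 on the SD5 array, a log2 ratio of -0.14. Across the 7 telomere-binding genes the median was 0.04, and ccq1, a shelterin gene, was the single one beyond 1.3-fold, at 0.46 (689 in wild-type cells and 821 in SD5 cells). For comparison, probe sets of like signal ranged from -0.23 to 0.18 there. The others with extreme ratios in this list were tpz1 (-0.09), a shelterin gene, and rif1 (0.12), a partner of Taz1 at telomeres.

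The list of meiotic nuclear movement also holds genes of nuclear fusion and of meiotic recombination. Its 10 genes had a median of 0.08, with 8 above 0. Without centring the median was -0.13, with 3 genes above 0. At least 1.3-fold higher were 2 of the 10, beside 1.22% of named genes, and this count ranged from 0 to 3 under the alternatives. The first, dhc1, the dynein heavy chain gene, had a signal of 43.9 for the wild-type and 52.5 for SD5 (log2 ratio 0.46). The second, tht2, a nuclear fusion gene, had 128 and 148 (0.41). Probe sets of the signal of dhc1 ranged from -0.60 to 0.64, and those of the signal of tht2 from -0.44 to 0.36, so that tht2 lay above its range and dhc1 inside. The lowest were mcp5, whose product anchors dynein to the cell cortex (-0.21), and dli1, a dynein light intermediate chain gene (-0.07).

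At the spindle pole body, where Sad1 resides, 15 of 18 listed genes had a probe set with a name, and all 15 differed by less than 1.3-fold (median 0.03). The lowest was mto2, which encodes a subunit of the Mto1/2 complex that recruits gamma-tubulin (531 on the wild-type array and 363 on the SD5 array, -0.35), followed by alp4, a gamma-tubulin complex gene (-0.15). The highest were sid4, the septation scaffold gene (407 in wild-type cells and 444 in SD5 cells, 0.33), and pcp1, the pericentrin gene (0.23). Probe sets of like signal ranged from -0.25 to 0.24 for mto2 and from -0.27 to 0.23 for sid4, so that both genes lay outside them. So did pcp1 (95th percentile 0.22) and sfi1, a gene of spindle pole body duplication (0.20 against a 95th percentile of 0.19). This makes 1 gene below and 3 above their ranges among the 15. By definition 5 percent of probe sets lie below such a range and an equal share above it. Whether the count among the 15 exceeds that share was not tested.

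Other nuclear membrane and membrane remodelling genes had the narrowest range of the lists. Of 16 genes 13 had a ratio, from -0.26 to 0.07 with a median of -0.02, and none passed 1.3-fold. The lowest was ned1, the lipin gene (493 for the wild-type and 358 for SD5, -0.26), and next to it nem1, which encodes the lipin phosphatase (-0.06). The highest were tts1 (0.06) and vps4, the ESCRT ATPase gene (0.07). All 28 nuclear pore genes had a ratio, with a median of 0.01, and 1 was beyond 1.3-fold. This was nup40, a nucleoporin gene (344 on the wild-type array and 220 on the SD5 array, -0.44), against a range of -0.34 to 0.25 at like signal. The next lowest was nup97 (-0.20), and the highest were alm1, the gene of a nuclear basket protein (0.23), and nup45 (0.16). Both lay above the 95th percentile at their signal, which was 0.15 for each.

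**Figure D4:**
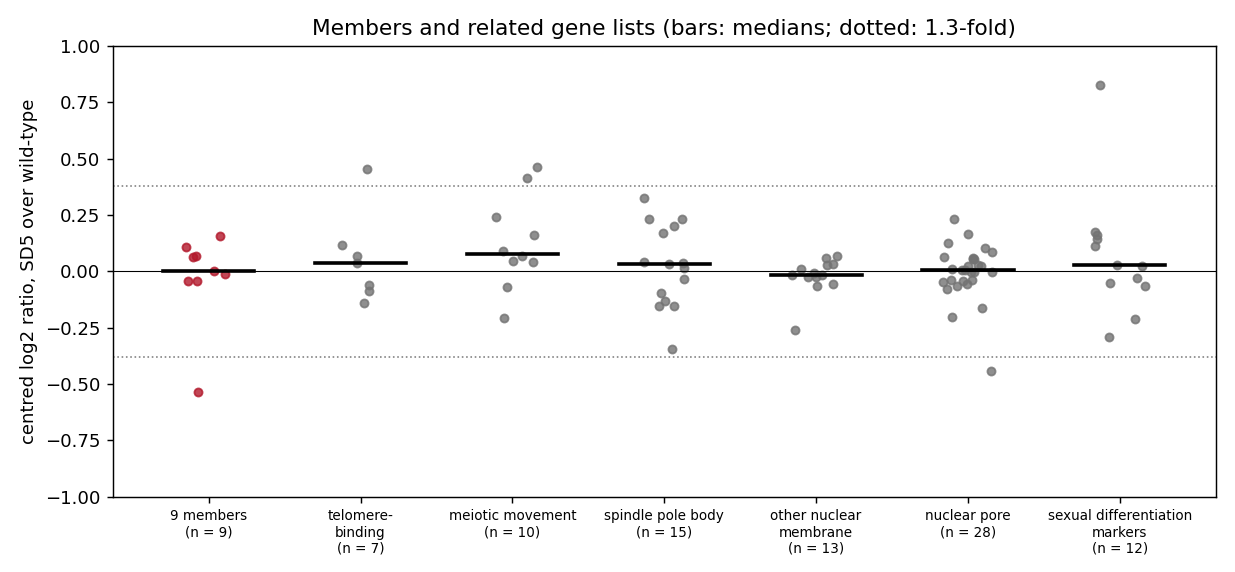
Centred log2 ratio of SD5 over wild-type for the 9 genes (red) and for 6 lists of related genes (grey), 1 point per gene with a ratio and a bar at each median; dotted lines mark 1.3-fold. The 7 medians lie between -0.02 and 0.08, and few points pass the dotted lines.

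As bqt1 and bqt2 are induced in meiosis, marker genes of sexual differentiation and meiosis were read beside them. Of 14 markers, 12 had a ratio (median 0.03; 5 below 0 and 7 above) and the remaining 2, mei3 and spn6, were below background in both arrays. The summed deposited signal of all 14 was 2849 in wild-type cells and 2495 in SD5 cells, 87.6% of the wild-type, beside a centring factor of 0.869. Of the wild-type sum, 1618 came from mde10 and ste11, and the other 12 markers summed to 1231 on the wild-type array and 1112 on the SD5 array (90.3%). The master regulator gene ste11 had 617 for the wild-type and 545 for SD5, a log2 ratio of 0.02. The gene of the meiotic transcription factor Mei4 had 45.4 and 42.6 (mei4, 0.11), both above background. The lowest ratios were those of rep1 (-0.29) and mei2 (-0.21), and the highest that of spo6 (0.83), with signals of 41.1 and 63.4, and that of rec8 (0.17), the meiotic cohesin gene. The ratio of spo6 lay above the range of -0.60 to 0.63 at its signal, and it was the 1 marker at least 1.3-fold higher, with 0 lower. The part of such cells in the signal of bqt2 was not tested, and in bulk RNA fewer cells of a kind and less RNA per cell cannot be told apart.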

How the data were processed

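The authors deposited 1 linear intensity per probe set and array, 10928 in all; 5748 were exactly 0 in both arrays and were left out, and 4999 S. pombe probe sets remained. Per the labels' protocols, biotinylated cRNA was made from 5 ng of polyadenylated RNA by in vitro transcription from the 3′ end. GCOS 1.4 is named in the submitters' processing notes; the sources used here do not give the probe summary and scaling target. Probe sets were named by matching the platform's gene identifiers to ASM294v3.

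Before log2 was taken, any signal under background was raised to it, and ratios were centred. A signal below background in 1 array gives a bound, written "at least", and in both no ratio. Probe sets of the same gene were averaged. With 1 array per strain no p-value was computed; 2-fold and 1.3-fold served as fixed limits. The number of arrays limits the precision. The members, gene lists and rules were chosen with earlier results of these data known. Named are all members, the 2 lowest and 2 highest genes of each list, the genes of the label check and those nearest in ratio to the extreme members; dsc1, mek1, lem2, sfi1, mde10, ste11, mei4, mei3, spn6 and the neighbours and overlaps of members were added after their values were seen. A planned search of promoters for motifs was not made. Calculations used Python 3.11.15, numpy 2.4.6, pandas 2.3.3 and statsmodels 0.14.6, and were tested on simulated data.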

Additional observations from a re-analysis of the deposited data

How the results depend on the processing

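All 9 members stayed within 2-fold under the 9 alternatives in which they had a ratio. Without centring the log2 ratios were -0.13 for bqt1, -0.74 for bqt2, -0.21 for bqt3 and -0.25 for bqt4. They were -0.20 for sad1, -0.045 for kms1, -0.14 for kms2, -0.10 for ima1 and -0.25 for man1. The median of the members was then -0.20. That setting leaves in the shift of all probe sets. With the background as a pseudocount, which is larger for SD5 than for the wild-type, bqt2 was at -0.12. The count of members at least 1.3-fold lower, 1 as reported, was 0 with that pseudocount and after quantile normalization (bqt2 at -0.23). It was also 0 with the background raised to where the dimmest 10 percent of S. pombe probe sets end, since bqt2, sad1 and ima1 then lay under it on each array and had no ratio. Under the alternatives with centring that gave a ratio, bqt2 ranged from -0.61 to -0.12 and was the lowest member in each, sad1 from -0.05 to 0.26, ima1 from 0.06 to 0.27 and kms1 from 0.11 to 0.18. Keeping the brightest probe set or leaving out the floor could not move a member, each having 1 probe set above background. For the same reason a background at the 75th percentile of the control and reporter probe sets could act on members only through the centring. It left bqt2 at -0.54. No paired analysis was possible because each strain has 1 array, and no replicate could be left out.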

Other observations

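Among the 9 genes, 3 (bqt1, bqt2 and man1) also carry a mug synonym, the name given to genes that are upregulated in meiosis. Besides these, 172 named genes have a mug symbol or synonym, of which 160 had a ratio. Their median log2 ratio was -0.02, with 90 below 0 and 70 above. At 1.3-fold, 4 were lower (2.5%) and 8 higher (5.0%), beside 1.19% and 1.22% of all named genes. The split moved with the processing: it was 3 lower and 19 higher after quantile normalization, 4 and 5 when centred on hybridisation controls, and 23 and 1 without centring, and the median ranged from -0.22 to 0.03. With the background where the dimmest 10 percent of S. pombe probe sets end, 110 had a ratio, with 2 lower (1.8%) and 1 higher (0.91%). These alternatives were added for this list after its values were seen. No comparison with probe sets of like signal was made for this list. The single one at least 2-fold lower was say1, a gene 21 protein-coding genes from a chromosome end, with a signal of 362 for the wild-type and 0.335 for SD5.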
